A study of Mus musculus with 12 samples.

Results

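A set of 134 genes had transcript levels in cortical nuclei that were lower at postnatal day 14 (P14) than at both birth (P0) and postnatal day 28 (P28). The set was chosen from the measured values themselves. Read counts scaled to a common library total (CPM) were computed for each library over the 25834 genes listed at all 3 ages, and a gene was taken if it had a symbol, a mean of at least 5 CPM at P0 and at P28, both means at least 1.4 times the P14 mean, and all 4 P14 libraries below every P0 and every P28 library. Of the 10655 genes with a symbol and enough expression to qualify, 134 met the rule (1.26%). The dip itself is therefore a description and carries no test.

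The libraries came from male mice at 3 ages, with 4 biological replicates per age and 12 libraries in all. Every pup had the genotype CAG-Sun1/sfGFP +/-; NEX-Cre +/-, so all ages shared a single genotype. The NEX promoter (the gene Neurod6) drives Cre mainly in excitatory neurons of the cortex and hippocampus, and Cre switches on Sun1/sfGFP, a nuclear envelope protein carrying a green fluorescent tag. Tagged nuclei were pulled down with the INTACT method, and polyadenylated RNA was made into stranded libraries. The library names at P0 and P14, not those at P28, carry the letters WT, and the labels do not say which locus this refers to. The values are levels in nuclear RNA relative to all counted RNA of the library, so that fewer expressing nuclei and less RNA per nucleus cannot be told apart.

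Cortical excitatory neurons finish migrating around birth and extend axons. They form and prune synapses during the following weeks, a period that spans eye opening and the onset of patterned vision in mice. Several gene classes are switched by calcium entry and by the ERK kinase cascade in these cells: immediate-early transcription factors of the Fos and Nr4a families, salt-inducible kinases, and the dual-specificity phosphatases that shut ERK and its relatives off again. Others, such as axonal adhesion molecules and early neuronal transcription factors, belong to the program of immature neurons and are usually high at birth. Genes of both kinds were among the 134.

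Sequencing was shallowest at birth, with 13195973 to 16599217 reads in each P0 library. The P14 libraries held 25486861 to 33611769 reads and the P28 libraries 21569262 to 31215435, and 3 reads were worth between 0.0893 and 0.227 CPM. The member with the fewest reads in any library was Dlk1, with 18, and 116 members had at least 100 reads in every library. P14 replicate 2 stood apart from the other P14 libraries: its mean correlation with them was 0.951, and in it the summed level of the fixed list of nuclear long noncoding RNAs was 28604 CPM, against 10329 to 15309 CPM in the other P14 libraries. Summed markers of excitatory neurons were 2348 to 2616, 3310 to 4141 and 4233 to 4648 CPM at the 3 ages. Markers of the labelled cell type were thus detected at each age. Of the 17 markers, 9 were called lower and 3 higher at P14 than at P0, where 34.5% and 34.4% of all tested genes were. At P28 against P0, 11 were lower and 4 higher, where 35.6% and 35.7% of tested genes were. The sum thus rose although most of these markers were called lower at P28 than at P0. Markers of other cells changed with age: inhibitory neuron markers summed to 1102 to 1213, 496 to 838 and 531 to 648 CPM at the 3 ages, oligodendrocyte markers to 101 to 107, 1046 to 2531 and 1848 to 2929, astrocyte markers to 862 to 1080, 1884 to 3792 and 2282 to 2522, and vessel and meninges markers to 1084 to 1878, 103 to 309 and 65.3 to 143. None of these 4 sums was lower at P14 than at both other ages in every library. The 134 genes included 0 of the fixed markers of neurons, glia, vessels and other brain cells. The part of cell makeup in the dips was not tested.

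Depth of the dip varied widely among the members. The dip fold, which is the lower of the P0 and P28 means divided by the P14 mean, ran from 1.4 to 5.43, with a median of 1.57 and quartiles of 1.49 and 1.72. It was at least 2 for 12 genes and under 1.5 for 38. The first step was steeper than the second for most members: the P0 mean was a median of 2.17 times the P14 mean (range 1.47 to 11.8), whereas the P28 mean was a median of 1.62 times the P14 mean. As a share of the drop from P0 to P14, the level regained at P28 had a median of 55.1%. It was under 25% for 23 genes, between 25 and 75% for 71, and 75% or more for 40, and in 23 genes the P28 mean equalled or exceeded the P0 mean.

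**Figure D1:**
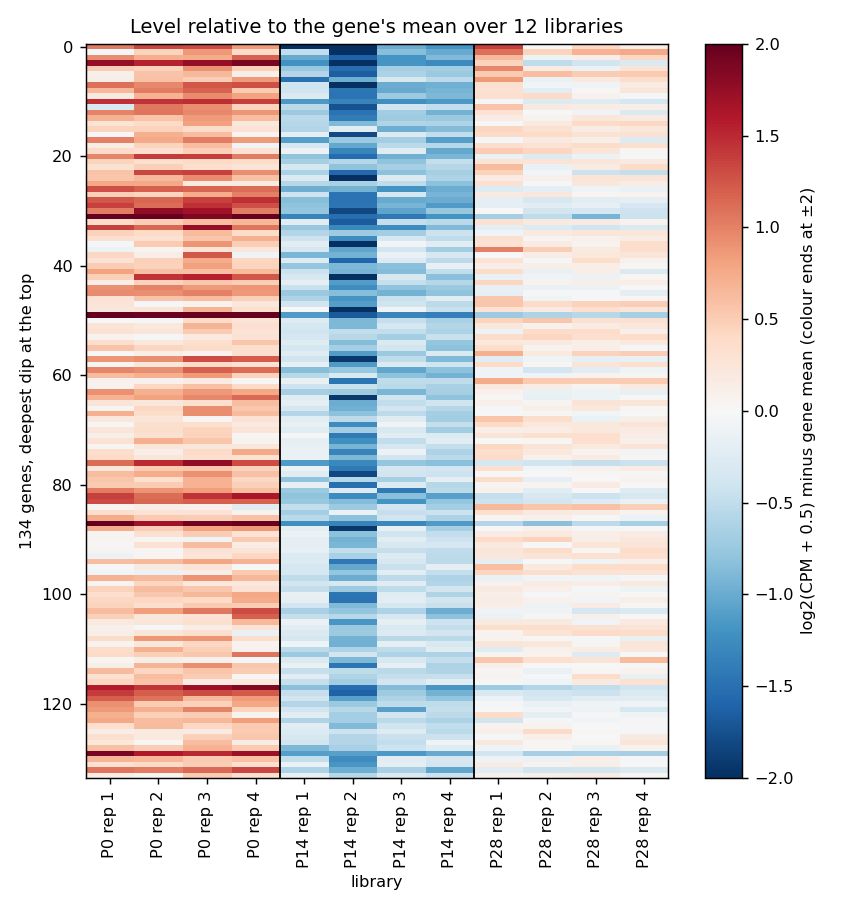
Level of each of the 134 genes (rows, deepest dip at the top) in each of the 12 libraries (columns), as log2(CPM + 0.5) minus the gene's mean over the libraries; blue is below and red above that mean. The P14 columns are blue throughout, which the rule requires, and P14 replicate 2 is the darkest of them.

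The P0 side of the rule alone, a P0 mean at least 1.4 times the P14 mean with no overlap, was met by 2505 of the 10655 genes (23.5%), and the P28 side alone by 549 (5.15%). The members were 5.35% of the former and 24.4% of the latter. Most genes that were lower at P14 than at P0 were thus not back at P28: 99.1% of the 2505 had a lower mean at P28 than at P0, as did 82.8% of the members. In the plot of the 2 steps the members occupy the corner that few genes reach.

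**Figure D2:**
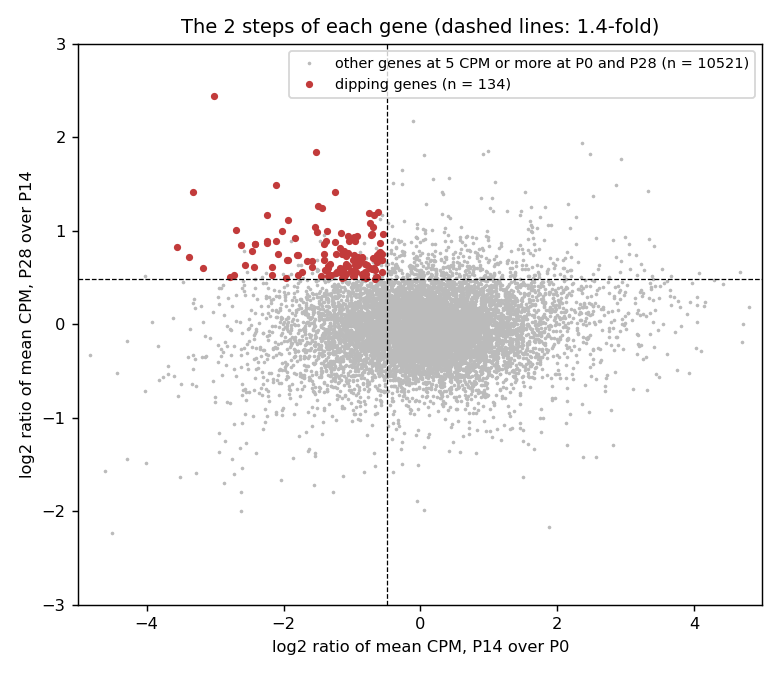
For each gene with a symbol and at least 5 CPM at P0 and P28, the log2 ratio of mean CPM from P0 to P14 (x axis) and from P14 to P28 (y axis). The 134 dipping genes are red and the other 10521 grey, dashed lines mark 1.4-fold, and grey points in the upper left corner failed the condition on overlap.

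Membership leaned on 1 library. P14 replicate 2 was the lowest of the 4 P14 libraries for 103 of the 134 members (76.9%), against 44.1% of all 10655 genes, and replicates 1, 3 and 4 were lowest for 6, 11 and 14 members. The median log2 ratio of replicate 2 to the mean of the other P14 libraries was -0.49 over members and -0.02 over all 10655. Summed over the members, P14 replicate 2 reached 3276 CPM, the other P14 libraries 4557 to 5362, the P0 libraries 11586 to 13052 and the P28 libraries 7238 to 7999. The order of these sums by age follows from the rule.

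Without P14 replicate 2 the dip fold of the members had a median of 1.48, and 90 of the 134 still met the rule. The 44 that did not included Zfp551, Zbtb37, Zfp646, Zfp319, Gstm1, Kctd10, Fat3, Vgll4, Ackr3, Lrfn3, Hivep1, Lrrc20, Grik3, Tesk1, P2rx6, Ep300, Itpkc, Bcor, Zswim4, Prpf8, Lrrc47, Topors, Vps37b, Git1, Zfp687, Ctnna1, Prdm10, Hba-a2, Heatr5b, Dusp16, Rif1, Apc2, Trp53i11, Mroh2a, Zbtb2, Dnase1, Tada1, Bcar1, Phf13, Nr4a2, Usp1, Tnrc18 and Rassf1. Their folds were then at least 1.24 and under 1.4. Another 28 genes met the rule only without that library, for a total of 118.

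The scaling also decided membership. On the deposited values as they stand, in which each age was normalized on its own, 45 of the 134 met the rule and no other gene did. All 134 kept their membership after median-of-ratios scaling over the 12 libraries, where 173 genes qualified. The 45 included 11 of the 23 genes picked by the naming rule, among them all 8 with the deepest dips, and 43 of the 45 also met the rule without P14 replicate 2. Without the libraries labelled as merged (P0 replicate 1 and P28 replicate 4), 152 genes met the rule, 127 of them members.

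**Figure D3:**
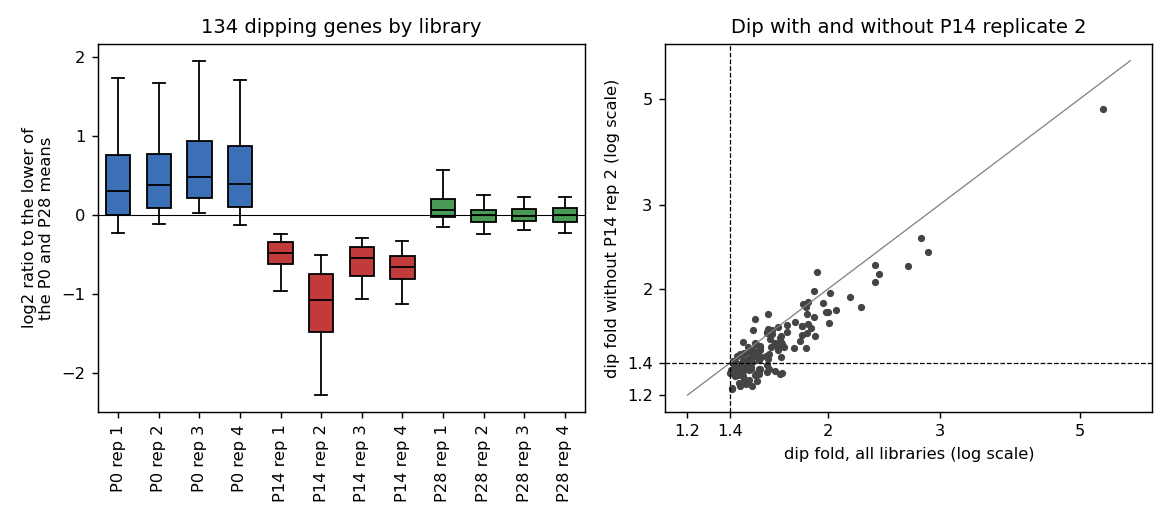
Left, log2 ratio of each library's CPM + 0.5 to that of the lower of the P0 and P28 means for the 134 genes (box: quartiles with the median; whiskers: 5th to 95th percentile). Right, dip fold of each gene over all libraries against the dip fold without P14 replicate 2 (log scales, line of equality solid, 1.4-fold dashed); 44 genes lie under the horizontal dashed line, and the P14 replicate 2 box is centred at -1.07 where the other P14 boxes are centred between -0.65 and -0.47.

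At the threshold the cases were close. Just inside were Rassf1, with a fold of 1.402, and Tnrc18, with 1.406. Just outside were Bcorl1, just under 1.4, Ptbp1, with 1.399, and Arid1a, also with 1.399. Arid1a, a subunit of BAF chromatin remodelling complexes, averaged 286 ± 24.7, 116 ± 10.2 and 162 ± 9.72 CPM at the 3 ages (SD, n = 4).

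Activity-linked and MAP kinase genes included Sik1, Dusp4 and Fosl2, whose dips were the deepest after those of Dlk1 and Prag1. Of 11 members placed in this class after their values were seen, the dip folds ran from 1.42 to 2.81 with a median of 1.85. Promoter sequence was looked at for 3 of them, Nr4a2, Nr4a3 and Fosl2, the members on the fixed list of immediate-early genes. The motif TGACG, on either strand (CGTCA), is the core of the cAMP response element bound by CREB, a factor through which calcium entry switches on such genes; it overlaps the full element TGACGTCA, and it was searched after the sequences had been seen. Capitals mark the motif in the 250 RefSeq (GRCm38.p6) bases before the annotated start of Nr4a2 (chr2:57124004-57124253, minus strand) and of Fosl2 (chr5:32136222-32136471, plus strand), and in 30 bases around the closest pair of matches before 1 annotated start of Nr4a3 (chr4:48045090-48045119, plus strand) and of Nr4a1 (chr15:101266611-101266640, plus strand), the family member that did not dip. The start used for Nr4a3 is not its first, so its bases lie within the span of the gene given with its values.
Nr4a2: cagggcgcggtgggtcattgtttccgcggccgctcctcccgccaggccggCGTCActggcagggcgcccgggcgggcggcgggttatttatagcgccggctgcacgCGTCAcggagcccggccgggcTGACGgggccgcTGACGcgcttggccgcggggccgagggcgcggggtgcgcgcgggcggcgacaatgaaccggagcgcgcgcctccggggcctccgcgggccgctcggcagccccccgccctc
Fosl2: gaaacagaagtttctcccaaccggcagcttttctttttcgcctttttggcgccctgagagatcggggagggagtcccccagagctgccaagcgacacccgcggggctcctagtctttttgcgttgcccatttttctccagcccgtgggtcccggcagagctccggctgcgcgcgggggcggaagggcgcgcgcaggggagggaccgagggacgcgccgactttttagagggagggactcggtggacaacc
Nr4a3: gtCGTCAcatTGACGtctcgcattccaggc
Nr4a1: tgCGTCAatggaaccccgcgtgCGTCAcgc
The 250 bases before these starts of Nr4a1, Nr4a2 and Nr4a3 held 4 matches each and those of Fosl2 held 0, so the count of this motif did not separate the Nr4a genes that dipped from the other. In windows of 300 bases, 20.5% of 127 member windows held TGACG, against 31.9% of 11140 windows of genes that could have met the rule and 20.8% of all 32851.

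Nr4a2 (ENSMUSG00000026826, chr2:57106830-57124003) and Nr4a3 (ENSMUSG00000028341, chr4:48045078-48086447) encode orphan nuclear receptors induced within minutes by activity. Nr4a2 stood at 98.6, 91.4, 105 and 93.6 CPM in P0 replicates 1 to 4, at 34.6, 41.4, 48.3 and 54.9 at P14, and at 61.3, 66.0, 59.1 and 68.4 at P28. Nr4a3 stood at 89.3, 76.4, 98.5 and 80.8 CPM at P0, 34.4, 40.9, 38.0 and 52.9 at P14, and 78.0, 53.9, 60.1 and 63.9 at P28. For both genes P14 replicate 4 was the highest P14 library and still lay below every P28 library. Replicate 2 was the lowest P14 library for neither gene.

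Their paralogue Nr4a1 moved the other way from P0 to P14. Its P0 libraries held 12.4 to 18.1 CPM, its P14 libraries 75.5 to 174 and its P28 libraries 338 to 516, and it rose in both steps, by 2.75 (SE 0.22, adjusted p = 1.4e-07, limma) and by 1.85 on the log2 scale (adjusted p = 0.00020). Of the 17 listed immediate-early genes outside the set, 11 were higher and 1, Klf4, was lower at P14 than at P0, where 34.4% of all tested genes were called higher and 34.5% lower. From P14 to P28, 15 of 17 were higher and 0 lower, where 9.22% of tested genes were called higher and 9.09% lower. Fos, for one, averaged 4.01 ± 1.69, 24.2 ± 11.3 and 98.4 ± 24.3 CPM at the 3 ages (SD, n = 4). The order of the ages in the 3 dipping genes is set by the rule and was not compared with that of the list.

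Fosl2 (ENSMUSG00000029135, chr5:32136472-32157840), which encodes the Fos-related AP-1 subunit Fra-2, had a dip fold of 2.41. Its level was 77.1, 74.6, 100.8 and 75.6 CPM at P0, 31.7, 18.4, 33.6 and 33.1 at P14, and 106, 60.6, 49.5 and 65.5 at P28. P28 replicate 1 was the highest of all libraries and P14 replicate 2 the lowest. Without the latter the fold was 2.15.

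Sik1 (ENSMUSG00000024042, chr17:31844248-31855804) encodes a salt-inducible kinase that is itself a CREB target and restrains CREB's coactivators. It stood at 49.3, 42.3, 42.9 and 57.9 CPM at P0, 12.3, 7.92, 10.8 and 13.6 at P14, and 39.8, 23.6, 27.8 and 34.0 at P28. The dip fold was 2.81, and no P28 library reached a P0 library. Its relative Sik2 also had its lowest mean at P14, but its libraries overlapped between P14 and P28. Sik2 stood at 32.8 ± 5.46, 16.5 ± 9.10 and 23.3 ± 7.20 CPM at the 3 ages (SD, n = 4) and Sik3 at 58.5 ± 2.38, 86.9 ± 12.1 and 126 ± 14.7.

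Dusp4 (ENSMUSG00000031530, chr8:34807610-34819894), a nuclear phosphatase of ERK and related kinases, had the widest first step of this class, 10.1-fold. It stood at 52.0, 44.7, 51.9 and 57.2 CPM at P0, 6.16, 2.11, 6.31 and 5.88 at P14, and 20.6, 10.4, 11.4 and 12.2 at P28, so the level at P28 stayed far under that at P0. Dusp16, a phosphatase of JNK and p38, dipped by 1.45-fold, with 11.9 ± 2.15, 6.60 ± 0.833 and 9.57 ± 1.61 CPM at the 3 ages (SD, n = 4). Dusp5 and Dusp6, which act on ERK, were called higher at each later age instead: Dusp6 ranged over 38.8 to 50.4, 77.9 to 103 and 133 to 167 CPM at the 3 ages. A list of these phosphatases with Nr4a, Sik and Spry genes was drawn up after the values were seen. Of its 20 genes 5 were members, against 1.26% of the genes that could qualify, and this is a description only. Of the others, 6 were called higher and 6 lower at P14 than at P0, where 34.4% and 34.5% of all tested genes were. From P14 to P28, 8 of the others were higher and 1 lower, where 9.22% and 9.09% of tested genes were.

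The remaining genes of the class, named after their values were seen, dipped less than Sik1, Dusp4 and Fosl2. Rgs16, a brake on G protein signalling, had a fold of 1.68, and Tiparp, an ADP-ribosyltransferase induced by the aryl hydrocarbon receptor, 1.85. Pde8a, which degrades cAMP, had 2.16. Map3k11, an upstream kinase of JNK, had 1.603, and Ccnd1, cyclin D1, 2.01. Ccnd1 varied among the P0 libraries from 13.1 to 34.2 CPM, and P0 replicate 1 lay less than 1 CPM above the highest P14 library.

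**Figure D4:**
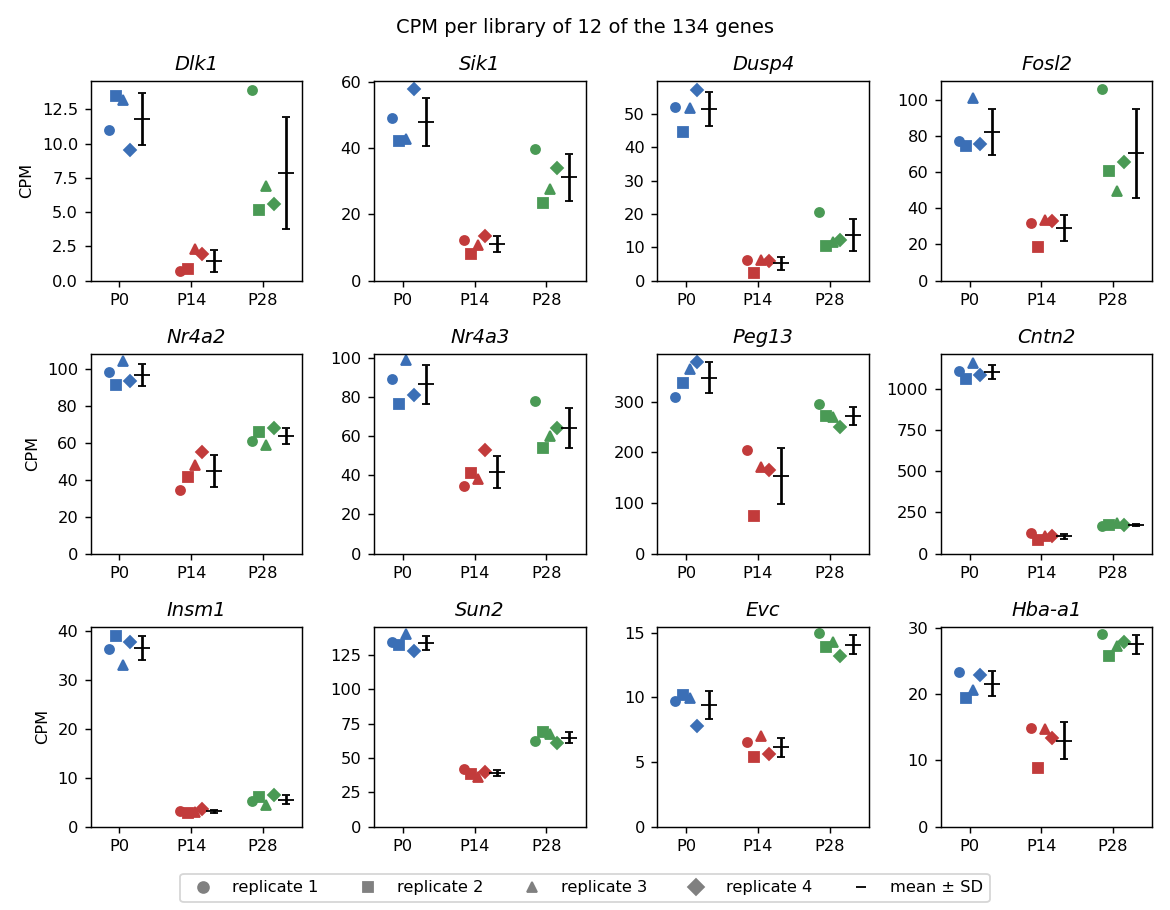
CPM in each library (symbols by replicate number, colours by age) of 12 of the 134 genes, with the mean ± SD of 4 libraries in black; each y axis starts at 0. The panels run from deep dips with regain (Dlk1, Sik1, Fosl2) over genes that regained little of a high P0 level (Cntn2, Insm1) to genes above their P0 level at P28 (Evc, Hba-a1).

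Imprinted genes, which are expressed from 1 parental copy, gave 3 members, chosen as a class after the values were seen: Dlk1, Peg13 and Mest. Dlk1 (ENSMUSG00000040856, chr12:109452485-109463336), a transmembrane relative of Notch ligands, had the deepest dip of all, 5.43-fold. It stood at 10.96, 13.5, 13.2 and 9.52 CPM at P0, 0.706, 0.833, 2.31 and 1.96 at P14, and 13.9, 5.13, 6.90 and 5.57 at P28. P28 replicate 1 was far above the other P28 libraries, and the P28 mean of 7.88 had an SD of 4.09. At P14 the lowest library held 18 reads, so the fold is less precise than for the other members.

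Peg13 (ENSMUSG00000106847, chr15:72805602-72810324) is the only long noncoding RNA among the members. It stood at 310, 337, 366 and 380 CPM at P0, 205, 74.9, 172 and 165 at P14, and 296, 271, 270 and 251 at P28. The other 133 members are annotated as protein coding. Mest stood at 39.3 ± 10.04, 20.005 ± 8.14 and 38.2 ± 1.57 CPM at the 3 ages (mean ± SD, n = 4). Of 25 imprinted genes listed after the values were seen, the 22 others were called higher at P14 than at P0 in 7 cases and lower in 12, where 34.4% and 34.5% of all tested genes were, and at P28 against P14 in 1 and 2 cases, where 9.22% and 9.09% were. Meg3, in the same imprinted cluster as Dlk1, ranged over 859 to 1780, 4438 to 13590 and 4948 to 6050 CPM at the 3 ages.

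Axonal, adhesion and synaptic genes numbered 15 (classed after their values were seen), and Cntn2 and Sema4c had the second and the fourth steepest first step of the whole set. Cntn2 (ENSMUSG00000053024, chr1:132509425-132543251), also called TAG-1, an adhesion molecule of growing axons, stood at 1109, 1059, 1157 and 1082 CPM at P0, 123, 84.3, 109 and 105 at P14, and 164, 176, 184 and 170 at P28. It was the most abundant member at P0, and P28 brought back 6.84% of the drop. Apc2 (ENSMUSG00000020135, chr10:80295956-80318257), a microtubule-binding relative of the tumour suppressor Apc, stood at 856, 765, 932 and 1031 CPM at P0, 159, 98.9, 155 and 127 at P14, and 173, 189, 203 and 216 at P28. Sema4c (ENSMUSG00000026121, chr1:36548639-36560699), a transmembrane semaphorin, stood at 193, 158, 187 and 195 CPM at P0, 20.6, 19.01, 19.5 and 21.99 at P14, and 32.4, 27.0, 33.5 and 30.4 at P28. In these 3 genes the spread of the P14 libraries was small beside the large step from P0, and the P28 libraries lay only a little above them. The P14 libraries of Apc2 still ranged from 98.9 to 159 CPM, and without P14 replicate 2 its fold was 1.33, under the limit.

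Others of the class, named after their values were seen, came back further. Rims3, a presynaptic active zone protein, averaged 148 ± 14.1, 91.3 ± 24.5 and 188 ± 27.2 CPM at the 3 ages (SD, n = 4), and Git1, a synaptic scaffold, 189 ± 17.4, 128 ± 19.8 and 217 ± 5.98. Lrrc4b, Lrfn1 and Lrfn3, leucine-rich repeat proteins of excitatory synapses, had folds of 1.82, 1.5 and 1.56. Of the 9 other genes of their families, 4 were called higher and 2 lower at P14 than at P0. The shares of all tested genes were 34.4% and 34.5%. From P14 to P28, 1 of the 9 was called higher and 1 lower, where 9.22% and 9.09% of tested genes were. Efnb1, a ligand of Eph receptors, stood at 70.02 ± 6.57, 13.1 ± 2.35 and 23.8 ± 1.00 CPM, a course like that of Sema4c.

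Neural transcription factors gave 4 members. Insm1 (ENSMUSG00000068154, chr2:146221997-146225020), a zinc finger factor of newborn neurons and their progenitors, had the steepest first step of all members, 11.8-fold: 36.3, 38.9, 33.1 and 37.7 CPM at P0, 3.18, 2.74, 2.92 and 3.55 at P14, and 5.29, 5.98, 4.33 and 6.38 at P28. Scrt2, a Snail-related repressor of migrating neurons, had a similar course, with 38.6 ± 8.48, 6.99 ± 1.38 and 12.1 ± 0.771 CPM (SD, n = 4). Its paralogue Scrt1 ended above its starting level, with 67.1 ± 9.23, 40.7 ± 7.74 and 79.3 ± 6.73 CPM. The 16 fixed progenitor and cell cycle genes contained 0 members, and 4 of them were called lower and 1 higher at P28 than at P14.

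Chromatin regulators and transcription cofactors formed the largest of the named classes, with 20 members (classed after their values were seen) and a median fold of 1.54. The share of such genes among those that could have met the rule was not counted, and 50 of the 134 members were placed in no class. Gse1 (ENSMUSG00000031822, chr8:120228501-120581383), a subunit of CoREST-type histone deacetylase complexes, stood at 60.1, 54.4, 66.2 and 68.4 CPM at P0, 20.8, 4.11, 13.6 and 13.9 at P14, and 34.6, 26.6, 26.1 and 30.9 at P28. P14 replicate 2 was far below the others, and without it the fold was 1.83 instead of 2.25. Setd1b, a histone H3 lysine 4 methyltransferase, averaged 94.4 ± 8.14, 33.0 ± 7.77 and 65.6 ± 2.93 CPM, and Ep300, a histone acetyltransferase and coactivator of CREB, 132 ± 24.1, 80.5 ± 16.3 and 122 ± 10.3 (SD, n = 4). Mn1 (ENSMUSG00000070576, chr5:111417300-111457030), a transcriptional coactivator, stood at 311, 253, 236 and 272 CPM at P0, 38.7, 38.9, 37.1 and 41.3 at P14, and 63.4, 52.3, 52.8 and 52.5 at P28. The P14 libraries of Mn1 agreed closely, replicate 2 included.

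Polycomb proteins were present with Cbx2, at 31.4 ± 1.55, 6.998 ± 1.011 and 10.7 ± 1.05 CPM, and Bcor, at 54.9 ± 5.12, 36.6 ± 8.41 and 66.8 ± 8.01. Zinc finger genes with names in Zfp, Zbtb, Zkscan or Zscan numbered 11, or 8.21% of the members, against 3.20% of the genes that could have met the rule. Without P14 replicate 2, 6 of the 11 no longer met the 1.4-fold limit, beside 44 of all 134 members. The same held for 8 of 15 axonal, adhesion and synaptic genes, 9 of 20 chromatin genes and 2 of 11 activity-linked genes. Zbtb37, a zinc finger gene that fell under the limit, had 21.1, 3.04, 21.2 and 14.7 CPM in the 4 P14 libraries and 24.1 to 27.2 CPM at P28.

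RNA processing, protein turnover and transport gave further abundant members. Prpf8 (ENSMUSG00000020850, chr11:75486777-75509447), the central protein of the spliceosome, averaged 417 ± 53.8, 191 ± 66.6 and 283 ± 14.3 CPM at the 3 ages (SD, n = 4), and its fold was under the limit without P14 replicate 2. Ubr4 (ENSMUSG00000066036, chr4:139380659-139489533), a ubiquitin ligase of the N-degron pathway, stood at 303, 349, 388 and 361 CPM at P0, 266, 134, 245 and 224 at P14, and 390, 306, 355 and 375 at P28. Its mean was 350 CPM at P0 and 357 CPM at P28. Slc38a2, a neutral amino acid carrier, averaged 454 ± 70.4, 96.1 ± 19.7 and 179 ± 11.6 CPM. Sun2, an inner nuclear membrane protein of the same family as the Sun1 of the nuclear tag, averaged 134 ± 5.21, 38.9 ± 2.36 and 64.8 ± 3.80 CPM, with P14 libraries from 35.9 to 41.6.

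Lrp1 (ENSMUSG00000040249, chr10:127538157-127621148), an endocytic receptor for apolipoprotein E and other ligands, was the most abundant member at P28. It stood at 570, 717, 761 and 739 CPM at P0, 455, 240, 381 and 350 at P14, and 701, 546, 564 and 575 at P28. Prag1 (ENSMUSG00000050271, chr8:36094827-36147787), a pseudokinase scaffold, had the second deepest dip, 2.88-fold, with 20.5, 28.9, 38.6 and 27.4 CPM at P0, 14.7, 3.87, 11.4 and 10.2 at P14, and 45.4, 28.7, 34.4 and 35.9 at P28. Ecel1 (ENSMUSG00000026247, chr1:87142874-87157085), a membrane peptidase of neurons, stood at 5.66, 8.07, 7.503 and 9.80 CPM at P0, 1.53, 2.38, 4.04 and 3.47 at P14, and 9.74, 4.70, 5.92 and 6.73 at P28. C130074G19Rik (ENSMUSG00000039349, chr1:184871926-184883036) stood at 34.4, 47.8, 50.2 and 34.6 CPM at P0, 21.2, 9.88, 20.4 and 18.96 at P14, and 46.1, 49.5, 45.7 and 46.0 at P28.

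Haemoglobin alpha transcripts were also among the members. Hba-a1 (chr11:32283672-32284486) averaged 21.5 ± 1.92, 12.9 ± 2.83 and 27.5 ± 1.38 CPM and Hba-a2 (ENSMUSG00000069917, chr11:32296492-32297310) 13.8 ± 0.645, 9.38 ± 1.78 and 18.3 ± 2.22 (SD, n = 4). The 2 genes are near-identical copies, between which the counting may have split reads, so their separate values are uncertain. Hbb-bt and Alas2, also red cell genes, stood at 17.1 ± 2.63, 11.1 ± 4.34 and 15.2 ± 2.17 CPM and at 2.26 ± 0.15, 2.06 ± 0.733 and 2.38 ± 0.383. The 4 red cell genes summed to 52.5 to 55.7, 21.2 to 41.2 and 58.7 to 69.7 CPM at the 3 ages. Both haemoglobin alpha genes are members and make up most of this sum, so its order by age largely follows from the rule, whereas Hbb-bt and Alas2 overlapped between P14 and P28. The part of blood RNA in the dip was not tested.

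The rule set no order between P28 and P0, and that contrast was fitted. In the limma fit to all 15734 genes, 71.2% were called either way at an adjusted p of 0.05 or less, 35.7% higher at P28 and 35.6% lower. Of the 134 members, 68 were lower at P28 than at P0 (50.7%), 2 were higher (1.49%) and 64 passed in neither direction. The median log2 fold change was -0.43 over members and 0.00 over all tested genes. The same 8 libraries chose the members, and the P0 side of the rule was met far more often than the P28 side, so the split is a description of the set. Of the 64 without a call, 22 had a 95% interval within 0.5 log2 units of 0 on either side.

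**Figure D5:**
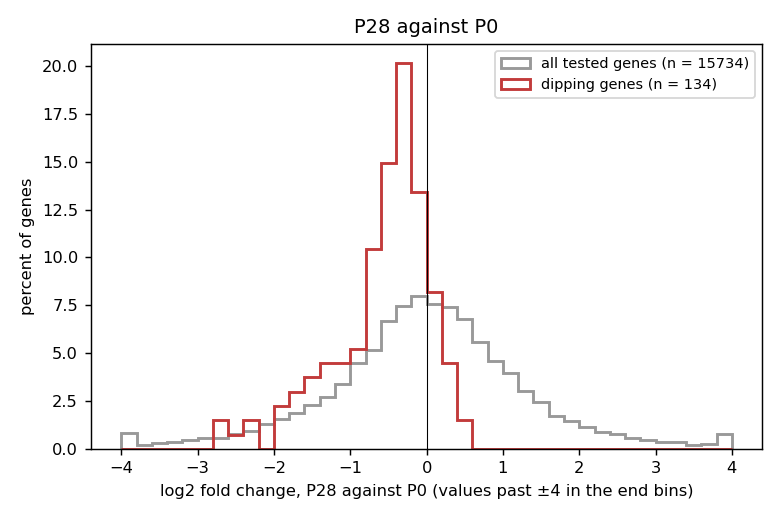
Percent of genes by log2 fold change of P28 against P0, in steps of 0.2, for all 15734 tested genes (grey) and the 134 dipping genes (red). The dipping genes peak just below 0, at a median of -0.43, and the highest is Evc at 0.52.

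Largest among the 68 were the differences of 4 genes with a high level at birth. Cntn2 had a log2 fold change of -2.71 (SE 0.11, adjusted p = 9.3e-11, limma), Insm1 of -2.68 (SE 0.14, adjusted p = 1.4e-09), Sema4c of -2.60 (SE 0.10, adjusted p = 1.2e-10) and Mn1 of -2.31 (SE 0.10, adjusted p = 2.4e-10). For each of these the 4 P28 libraries lay below the 4 P0 libraries, and the exact two-sided permutation test gave p = 0.0286, the smallest possible with 4 against 4. These genes were picked as the largest falls of this same contrast, so that test adds no separate support. The log2 fold change of Dusp4 was -1.97 (SE 0.29, adjusted p = 4.2e-05), that of Gse1 -1.11 (SE 0.34, adjusted p = 0.011) and that of Sik1 -0.68 (SE 0.19, adjusted p = 0.0069). That of Nr4a2 was -0.65 (SE 0.13, adjusted p = 0.00039) and that of Nr4a3 -0.48 (SE 0.15, adjusted p = 0.0099). On the deposited values Sik1 and Nr4a3 lost their calls, with adjusted p of 0.085 and 0.228.

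Dlk1, Fosl2, Prag1, Ecel1, C130074G19Rik, Lrp1, Peg13 and Ubr4 did not pass. Their log2 fold changes and 95% intervals were -0.69 (-1.40 to 0.01) for Dlk1, -0.32 (-0.83 to 0.20) for Fosl2, 0.28 (-0.41 to 0.98) for Prag1, -0.25 (-0.85 to 0.35) for Ecel1, 0.14 (-0.32 to 0.59) for C130074G19Rik, -0.27 (-0.66 to 0.12) for Lrp1, -0.40 (-0.92 to 0.11) for Peg13 and -0.02 (-0.42 to 0.38) for Ubr4. Without P28 replicate 1 the adjusted p (limma) was 0.008 for Dlk1 and 0.033 for Fosl2, both lower at P28. Without P14 replicate 2, which enters this contrast only through the estimate of the spread, it was 0.048 for Dlk1, 0.0487 for Lrp1 and 0.0012 for Peg13, all lower at P28. An interval that includes 0 leaves room for changes of its width and does not show equal levels.

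Evc (ENSMUSG00000029122, chr5:37288970-37336947), a ciliary protein of Hedgehog signalling, was the clearest of the 2 rises. It stood at 9.70, 10.2, 9.93 and 7.77 CPM at P0, 6.51, 5.42, 6.997 and 5.62 at P14, and 15.0, 13.9, 14.3 and 13.2 at P28, with a log2 change of 0.52 (SE 0.13, adjusted p = 0.0025, limma). Hba-a2 was higher by 0.35 (SE 0.15, adjusted p = 0.0499), a call that 16 of 24 alternative analyses did not keep. Among these were the fits without any 1 of the P0 libraries, of P14 replicates 3 and 4 or of P28 replicates 1, 2 and 4, with adjusted p of 0.052 to 0.139 (limma). By class, the lower calls numbered 6 of 11 activity-linked genes, 10 of 20 chromatin genes, 8 of 15 axonal and synaptic genes, 6 of 11 zinc finger genes, 2 of 4 neural transcription factors and 0 of 3 imprinted genes. These counts stand beside 50.7% of all members and 35.6% of all tested genes called lower, and differences between classes were not tested.

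Most fixed lists had no members. Of 20 lists with 360 distinct genes, 18 had none, and 4 genes in all were members: Fosl2, Nr4a2, Nr4a3 and Peg13. The rule was met by 1.26% of the genes that could qualify, so few members per list would be found at the background share too, and the lists without members are given as a description. They included glucocorticoid targets, clock genes, heat and cold shock genes, unfolded protein response genes, splicing regulators, sterol and lipid synthesis, BMP, TGF-beta and Wnt signalling, and neuropeptides with neurotrophins and their receptors. Of the 20 lipid and sterol genes, 17 were lower at P14 than at P0, where 34.5% of all tested genes were, and at P28 against P14 4 were higher and 2 lower, where 9.22% and 9.09% of tested genes were.

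Transcripts of the members were rich in G and C. The median GC content was 55.3% over 131 members with a known transcript, against 50.2% over the genes that could have met the rule and 54.5% over the genes that met the P28 side. Members made up 0.268% of the genes lowest in GC, when all were split into 4 equal groups, and 0.651%, 1.53% and 2.57% of the following groups. Among all these genes, the median log2 ratio of P14 to P28 was taken with P14 replicate 2 left out. From the lowest to the highest GC group it was 0.12, 0.03, 0.01 and -0.10. The median gene of the highest GC group was thus slightly lower at P14 than at P28. It was not lower than at P0, as the same ratio to P0 was 0.07 in both the lowest and the highest group. In the highest group, the median log2 ratio of P14 replicate 2 to the other P14 libraries was 0.11, against -0.49 over the members. The part of GC content in the dip was not tested. Median transcript length was 3818 bases over members and 3297 over the genes that could have met the rule.

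Members lay on every autosome and on the X chromosome. A few were neighbours: Midn, Apc2, Reep6 and Mex3d lie on chromosome 10 between 80146005 and 80387651, Scaf1 and Prr12 lie 11.3 kb apart on chromosome 7, Map3k11 and Ltbp3 38.0 kb apart on chromosome 19, and Prag1 and Lonrf1 68.3 kb apart on chromosome 8. Promoter windows were found for 98 of the 134. The GC box GGGCGG was in 63.8% of the 127 member windows and 64.0% of those of comparable genes, CCAAT in 37.0 and 37.2%, TATAAA in 7.87 and 6.53%, CACGTG in 7.09 and 10.1%, and the full cAMP element TGACGTCA in 3.94 and 3.21% (both strands, 300 bases). The D-box site TTATGTAA was in 0 of the member windows and in 0.476% of the others, and the palindromic glucocorticoid response element in 0 and 0.00898%.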

How the data were processed

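RNA-seq of polyadenylated RNA covered 12 libraries, 4 biological replicates at each of P0, P14 and P28. Per the file headers and the submitters' processing notes, which name DESeq2 and mm10, the deposited values are a signal, normalized read counts, which the authors divided by a factor per library separately at each age. Aligner, counter, strand setting and annotation: not given in the sources used here. Every value was a whole multiple of its library's smallest step within 0.05 reads, and whole reads were taken as recovered for 11 libraries; for P0 replicate 1 the step was too close to 1 to tell. Columns without a matching sample numbered 0.

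CPM over the 25834 shared genes undid the separate factors. For tests, CPM were scaled by median-of-ratios factors over 12 libraries, genes at 1 scaled CPM in 4 or more libraries were kept (15734), and log2(scaled CPM + 0.5) was fitted with limma 3.58.1 (trend, robust, two-sided, Benjamini-Hochberg over all tested genes, threshold 0.05, R 4.3.3). This scale understates changes of low genes. Code was tested on simulated data. edgeR 4.0.16 and DESeq2 1.42.0 on the reads of 11 libraries were alternatives chosen after the data were seen.

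The members and lists were chosen with earlier results of these data known. Genes given in full are the 8 deepest dips, the 6 most abundant members, the 4 largest rises and falls of P28 against P0, up to 2 deepest dips of each list, and the nearest 3 on either side of the fold limit; the classes of members and all genes beyond these, Nr4a1, Nr4a2, Dusp, Sik, imprinted and red cell genes included, were chosen after their values were seen. Members that depend on a single library are named, except for items not reported here. Positions and promoters are RefSeq on GRCm38.p6; transcript length and GC content come from an older annotation, NCBIM37. The limit of 3 reads covers counting error only, and the 95% intervals of fold changes come from the limma fit over replicates.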

Additional observations from a re-analysis of the deposited data

Results flagged for a closer look

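Among the 23 genes of the naming rule, 69 groups of 4 libraries were examined for a library far from the other 3, and 5 were found, where chance gives about 3.5. In Dusp4, P14 replicate 2 was far below the others, at 2.11 CPM. In Fosl2, P14 replicate 2 was likewise far below, at 18.4 CPM, and P0 replicate 3 far above the other P0 libraries, at 100.8 CPM. In C130074G19Rik, P28 replicate 2 was above 3 closely spaced libraries, at 49.5 CPM. In Mn1, P28 replicate 1 was above the other 3, at 63.4 CPM.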

How the results depend on the processing

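The number of dipping genes, 134, was 313 with a fold limit of 1.2, 12 with a limit of 2 and 45 on the deposited values without rescaling, and leaving out each library in turn gave 118 (without P14 replicate 2) to 204 (without P14 replicate 1). Counts of all genes called in P28 against P0 stayed within 1.5 times of the reported ones under every alternative run. Members called in that contrast, 70, numbered 57 to 87. The lower calls, 68, were 44 on the deposited values, on which the median log2 fold change of all tested genes was 0.28 instead of 0.00. The higher calls, 2, were 13 on the deposited values, 5 in a fit of the 8 libraries of P0 and P28 only, and 1 with a pseudocount of 0.1, no filter, upper-quartile scaling, without both merged libraries, with edgeR and with DESeq2 (11 libraries each); leaving out each library gave 1 to 5, with 5 without P14 replicate 2. The cause was not tested. Direction was compared across settings for the 23 genes of the naming rule only, and no called gene among them changed direction. Of those not called, Ecel1 was at 0.01, Lrp1 at 0.01, Ubr4 at 0.26 and Rassf1 at 0.06 (log2) on the deposited values, above 0 where the reported values were below it, and Ubr4, reported at -0.02, was also above 0 with library total scaling (0.03) and without P0 replicate 3, P0 replicate 4 or P28 replicate 2 (0.01 to 0.05). Prpf8, lower at P28 with an adjusted p of 0.032, lost its call on the deposited values (0.236) and without P0 replicates 2, 3 or 4 or P28 replicates 2, 3 or 4, each left out alone (0.053 to 0.090, limma).

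Replicate numbers did not pair the libraries: same-numbered libraries of different ages correlated between -0.51 and 0.36 in their deviations. With the replicate block, 10987 genes and 67 members were called, 66 lower and 1 higher. Count tests of all 12 libraries were not run.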
